A study of Mus musculus with 7 samples.

Results

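Wnt ligands, receptors, secreted modulators and feedback genes were compared between myoblasts with and without Hmga2. The members were 46 Wnt pathway genes chosen by name, and the platform table paired 45 of them with a probe set, out of 18193 genes measured. Tcf7 was the gene without one. The 45 members had 100 probe sets between them, and each gene is represented by its brightest, the probe set with the highest mean over all samples. They fall into 4 roles, with 15 ligands and genes of ligand supply, 15 receptors, 7 secreted inhibitors and 8 nuclear or feedback genes.

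The samples were labelled as myoblasts of C57BL/6 mice. Myoblasts are precursors that proliferate, and then differentiate and fuse to form muscle fibres. Genes of differentiated muscle were bright in these samples (values below), so the cultures are not taken to have been proliferating only. The 3 wild type samples all came from females. The 4 HMGA2 -/- samples, called Hmga2 KO here, came from 2 males (replicates 1 and 3) and 2 females (replicates 2 and 4). No sample was treated, and RNA of each was hybridised to an Affymetrix mouse array. The sources used here do not state the age of the mice, the muscle of origin, the time in culture or how the gene was removed. Values are probe set intensities on the authors' linear scale, listed in the order of the replicate numbers, and differences are on the log2(intensity + 1) scale. Because probe sets differ in how well they bind, an intensity is compared only with the same probe set in other samples.

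Wnt proteins are secreted lipid-modified ligands. They bind frizzled receptors, and with the co-receptors Lrp5 or Lrp6 this protects beta-catenin from destruction so that it can act with TCF and LEF factors on target genes. Other branches, through Ror and Ryk receptors or planar polarity proteins, act without beta-catenin. Secreted frizzled-related proteins bind Wnts, Dickkopf proteins bind Lrp5 and Lrp6, and R-spondins raise the number of frizzled receptors at the cell surface. In skeletal muscle this pathway is known for its part in the expansion of satellite cells and in the differentiation of their progeny.

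Promoters in a RefSeq-derived table (assembly GRCm38.p6, from 250 bases before to 50 bases after a start site) matched 30 of the 46 genes, with 38 start sites. The 4 shown belong to members on which the comparisons turn, namely Fzd4 and Nkd2 for the genotype comparison, and Frzb and Dkk2 for the sarcomere score. Wnt5a and Fzd6, with the smallest p for genotype, had no match. The 4 shown lie at chr7:89404116-89404415 on the plus strand (Fzd4), chr13:73847582-73847881 on the minus strand (Nkd2), chr2:80447347-80447646 on the minus strand (Frzb) and chr3:132085042-132085341 on the plus strand (Dkk2). Capitals mark the TCF/LEF core letters CTTTGA or CTTTGT on either strand, or a run of at least 7 bases that are all A or T, since HMGA proteins bind AT-rich DNA.
Fzd4: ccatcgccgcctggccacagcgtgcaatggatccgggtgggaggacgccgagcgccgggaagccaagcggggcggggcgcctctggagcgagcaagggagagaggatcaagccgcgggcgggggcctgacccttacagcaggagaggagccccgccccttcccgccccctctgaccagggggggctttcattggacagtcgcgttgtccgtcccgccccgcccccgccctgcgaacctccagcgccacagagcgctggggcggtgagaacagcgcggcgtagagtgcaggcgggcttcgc
Nkd2: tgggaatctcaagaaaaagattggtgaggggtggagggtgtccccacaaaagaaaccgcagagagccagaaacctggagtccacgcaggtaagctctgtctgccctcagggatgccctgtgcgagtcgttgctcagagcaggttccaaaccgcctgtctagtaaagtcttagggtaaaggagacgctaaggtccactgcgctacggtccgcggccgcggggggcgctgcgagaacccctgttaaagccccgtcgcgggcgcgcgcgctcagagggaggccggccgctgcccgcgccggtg
Frzb: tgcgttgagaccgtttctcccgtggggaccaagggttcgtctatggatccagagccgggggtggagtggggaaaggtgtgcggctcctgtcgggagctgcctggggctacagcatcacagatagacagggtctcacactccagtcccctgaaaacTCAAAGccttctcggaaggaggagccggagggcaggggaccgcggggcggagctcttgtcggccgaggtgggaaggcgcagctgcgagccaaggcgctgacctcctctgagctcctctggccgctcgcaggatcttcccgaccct
Dkk2: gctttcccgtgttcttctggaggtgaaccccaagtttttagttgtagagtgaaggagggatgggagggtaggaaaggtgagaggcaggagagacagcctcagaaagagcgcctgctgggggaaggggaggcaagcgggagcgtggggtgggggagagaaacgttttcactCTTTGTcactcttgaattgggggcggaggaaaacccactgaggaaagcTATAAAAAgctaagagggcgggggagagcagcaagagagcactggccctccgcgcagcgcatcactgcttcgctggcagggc
The core was present once in the Frzb window, at position -95 as TCAAAG, and once in that of Dkk2, at position -80 as CTTTGT, counted from the start site. Dkk2 also has the A/T run TATAAAAA from position -32. The windows of Fzd4 and Nkd2 hold neither. Over all member promoters the core was found in 11 of 38 (28.9%), against 31.2% of the 32851 promoters of the table. An A/T run was found in 9 of 38 (23.7%), against 54.9%, and the median G and C content was 67%, against 52.7%. These are descriptions of the letters in a short window.

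Hmga2 itself was lower in every Hmga2 KO sample, with intensities of 11999, 9998 and 12800 in wild type and 96.6, 85.7, 96.7 and 104 in Hmga2 KO (difference -6.90, SE 0.115, adjusted p = 1.00e-08, limma). Every array had a median of 150 and a lowest value of 33.2 to 36.7. The highest value was 105395 in Hmga2 KO replicate 1 and 38896 in Hmga2 KO replicate 3, the males, and 26181 to 27844 in the other arrays. As a guide to background, 9 probe sets of Y-linked genes gave 33.9 to 58.2 in the 5 female samples. In all samples 41 of the 45 members lay above this range, and Wnt2, Wnt10a, Wnt16 and Dkk2 dipped into it in some. The chosen Hmga2 probe set still read 85.7 to 104 in Hmga2 KO, whereas another that was bright in wild type read 44.2 to 61.1. Whether some transcript remained was not tested. A value above the range is therefore not taken by itself to show expression. Background can shrink the differences of dim members, and its effect on them was not tested. The summed intensity of 12 myoblast markers was 106764 to 111987 in wild type and 94669 to 113653 in Hmga2 KO. Of these, 8 had a negative difference, and 2 had an unadjusted p under 0.05, Chrna1 (-0.29) and Vcam1 (-0.23). The defining markers had mean intensities of 5552 and 5981 for Pax7, 15351 and 14761 for Myod1 and 19212 and 17184 for Myog in wild type and Hmga2 KO. Myf5 had a difference of 0.64 and Itga7 of -0.60. The summed intensity of 18 sarcomere genes was 100466 to 139641 in wild type and 49952 to 112980 in Hmga2 KO, and 0 of the 18 had a positive difference. Several of the 18 were bright in both genotypes. Mean intensities, wild type first, were 16416 and 12221 for Mylpf, 11665 and 7845 for Myh3, and 10463 and 7186 for Acta1. Ckm was dim, at 161 and 129. The cultures thus held much RNA of differentiated muscle, and what part of the cells still divided was not tested. The summed intensity of 17 fibroblast and fibro-adipogenic markers, again wild type first, was 16751 to 17889 and 19111 to 23978. The difference was positive for 14 of 17. Of the 17, 4 had an unadjusted p under 0.05 in limma, Smoc2 (1.67), Islr (0.80), Mgp (0.73) and the dim Dcn (0.32). The bright ones among them were Mgp, with mean intensities of 2750 and 4582, and Islr, with 1019 and 1785. Col1a1 (-0.71), Thy1 (-0.11) and Osr1 (-0.03) had a negative difference. Among the positive markers, Lum (54.1 and 55.4) and Dpt (47.5 and 48.5) lay in the background range. The sum of 8 endothelial markers was 641 to 661 in wild type and 581 to 614 in Hmga2 KO, with 0 of 8 positive. None of the 8 had an unadjusted p under 0.05 in limma. They were dim, with mean intensities from 51.2 for Tek in Hmga2 KO to 103 for Cldn5 in wild type. That of 8 leukocyte markers was 613 to 678 and 624 to 668, and that of 6 Schwann and neural markers 837 to 909 and 817 to 957. The smooth muscle list gave 23070 to 33728 in wild type and 24261 to 33162 in Hmga2 KO. In it 4 of 8 genes had a positive difference, and 1 had an unadjusted p under 0.05 in limma. That was the pericyte marker Rgs5 (difference 1.72, unadjusted p = 0.0117, limma). Rgs5 gave 3078, 6701 and 949 in wild type and 9508, 10110, 11001 and 5946 in Hmga2 KO. Pdgfrb and Cspg4, of the same list, had -0.03 and 0.02. Apart from the sarcomere list, which is fitted as a score further on, the part of these lists in the members' values was not tested. In bulk samples fewer cells of a type and less RNA per cell cannot be told apart.

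The main comparison asked which of these genes differ between Hmga2 KO and wild type. The ligand gene Wnt5a, the receptor genes Fzd4 and Fzd6 and the feedback gene Nkd2 had higher mean values in Hmga2 KO, by 0.43 to 1.23 on the log2 scale. None of the 45 members passed an adjusted p of 0.05 in the limma fit over all genes, against 0.0275% of genes, and the smallest adjusted p was 0.293. The 4 genes named were those with an unadjusted p under 0.05, which is 8.89% of members against 13.3% of all genes. All 4 were higher in Hmga2 KO, where 2.99% of all genes were higher at that p and 10.3% lower. The count was 8 without wild type replicate 2, a fit for which the share of all genes was not counted. Fzd6 was the member whose groups did not overlap (2.22% of members, against 11.7% of all genes with 2.37% higher and 9.29% lower). Leaving out 1 sample gave 2 to 8 such members, with 8 again without wild type replicate 2. Fewer samples must then be separate, and the share of all genes was not counted.

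The median difference of the members was 0.06, beside -0.07 over all genes, and 26 of 45 members had a positive difference, beside 32.4% of all genes. By role the medians were 0.02 for ligands, 0.06 for receptors, 0.07 for secreted inhibitors and 0.07 for nuclear or feedback genes. The members' median took a negative sign when the probe sets of a gene were averaged (-0.03), without wild type replicate 2 (-0.02) and without Hmga2 KO replicate 2 (-0.02). With the arrays set to equal medians over genes, it was 0.17, beside 0.04 for all genes, and 33 members had a positive difference.

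**Figure D1:**
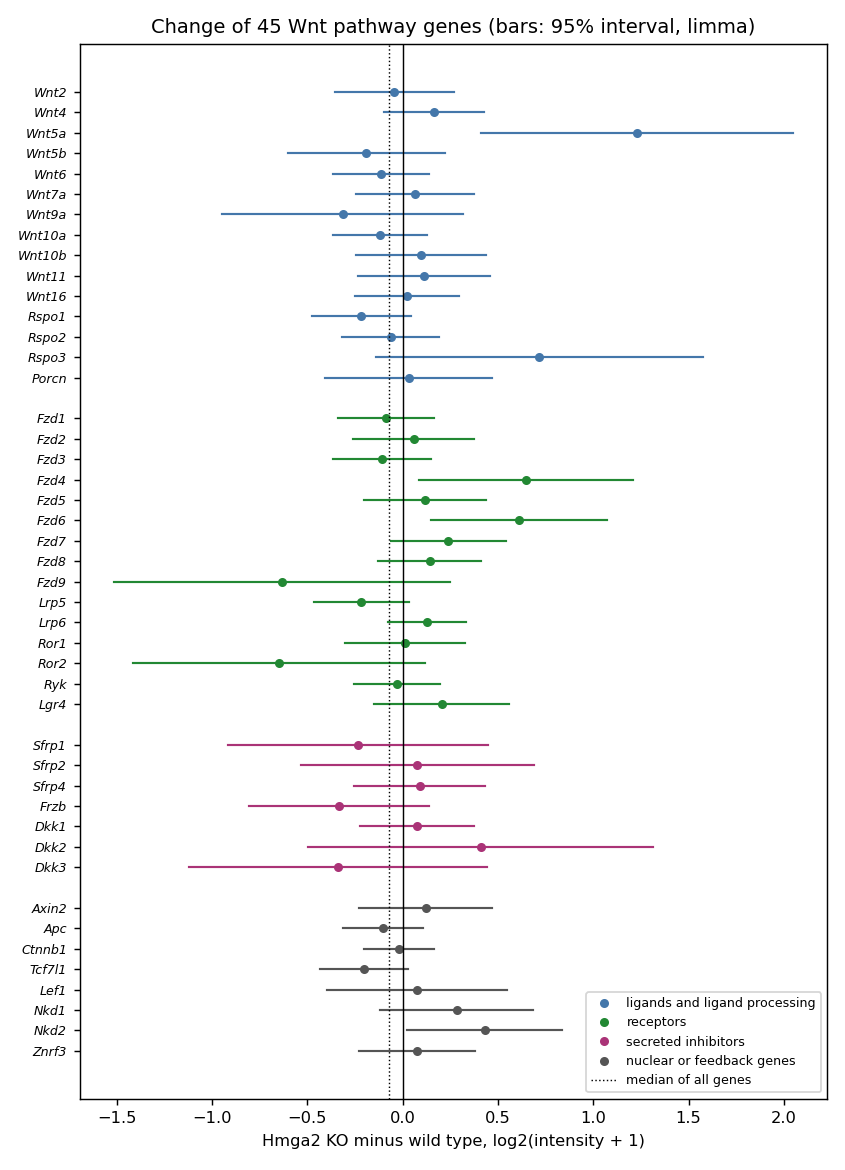
Difference between Hmga2 KO and wild type for the 45 measured members, in log2(intensity + 1), ordered by role, with 95% intervals from limma before adjustment for the number of genes. The dotted line is the median of all genes (-0.07). The intervals of Wnt5a, Fzd4, Fzd6 and Nkd2 lie above 0, and the other 41 include 0.

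Among the ligands, Wnt5a stood out by size. Wnt5a is a ligand best known for signalling without beta-catenin. Its intensity was 1238, 873 and 451 in wild type and 2906, 1194, 1799 and 1869 in Hmga2 KO. Hmga2 KO replicate 1 was highest and wild type replicate 3 lowest, and the groups overlapped only in that Hmga2 KO replicate 2 lay below wild type replicate 1. The means were 854 ± 394 (SD, n = 3) and 1942 ± 710 (SD, n = 4), a 2.35-fold ratio on the log scale (difference 1.23, SE 0.362, adjusted p = 0.293, limma). All 4 Wnt5a probe sets had a positive difference, of 1.23, 1.17, 1.09 and 0.52, and on the middle pair every Hmga2 KO sample exceeded every wild type sample. Hmga2 KO replicate 1 had the lowest sarcomere sum and the highest fibroblast marker sum of all samples. Without it the Wnt5a difference was 1.01, in females alone 0.92 and without wild type replicate 3 0.83. Over the 19 alternatives the adjusted p ran from 0.103 to 0.786.

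Wnt9a, another ligand, had intensities of 2133, 4311 and 2376 in wild type and 1817, 3398, 1936 and 2128 in Hmga2 KO. Replicate 2 was the highest sample of each genotype, and the groups overlapped (difference -0.32, 95% interval -0.95 to 0.31, adjusted p = 0.634). Wild type replicate 2 also had the highest sarcomere sum and the highest ratio of 3' to 5' Actb control signal, 1.94 against 1.61 to 1.74 in the other samples. The remaining 9 Wnt genes had mean log2 values of 5.75 to 7.50 in either group. Their differences ran from -0.19 for Wnt5b to 0.16 for Wnt4. Wnt7a, the ligand known for satellite cell expansion, was among them, with 0.06 (95% interval -0.25 to 0.37). Its other probe sets, at 53.2 to 79.6, had -0.28 and 0.04. On the former every Hmga2 KO sample lay below every wild type sample.

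Of the R-spondin genes, Rspo3 had intensities of 108, 133 and 108 in wild type and 120, 150, 441 and 167 in Hmga2 KO. Its difference of 0.72 (95% interval -0.14 to 1.57, adjusted p = 0.437) rested on Hmga2 KO replicate 3, without which it was 0.32. Rspo1 and Rspo2 had -0.22 and -0.06. Porcn, the acyltransferase that attaches the lipid to Wnt proteins, had mean log2 values of 8.68 and 8.71.

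Among the receptors, 2 frizzled genes had the smallest p. Fzd6 gave 3632, 2310 and 3533 in wild type and 5093, 4380, 6038 and 3701 in Hmga2 KO. All Hmga2 KO samples lay above all wild type samples, although Hmga2 KO replicate 4 exceeded wild type replicate 1 by little. The means were 3159 ± 736 (SD, n = 3) and 4803 ± 1001 (SD, n = 4), a 1.53-fold ratio (difference 0.61, SE 0.203, adjusted p = 0.299, limma). Its second probe set had the same direction (0.86), and the third, at 67.6 to 83.5, had -0.09. Without wild type replicate 2 the Fzd6 difference was 0.40, and in females alone 0.38.

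Fzd4 is a frizzled receptor best known from blood vessels of the retina. It gave 820, 1340 and 670 in wild type and 1262, 1766, 1656 and 1087 in Hmga2 KO. The groups overlapped because wild type replicate 2 lay within the Hmga2 KO range. The difference was 0.65 (SE 0.249, adjusted p = 0.334, limma), and the other probe sets gave 0.63 and 0.41. It was 0.93 without wild type replicate 2, 0.43 without wild type replicate 3 and 0.62 in females alone.

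**Figure D2:**
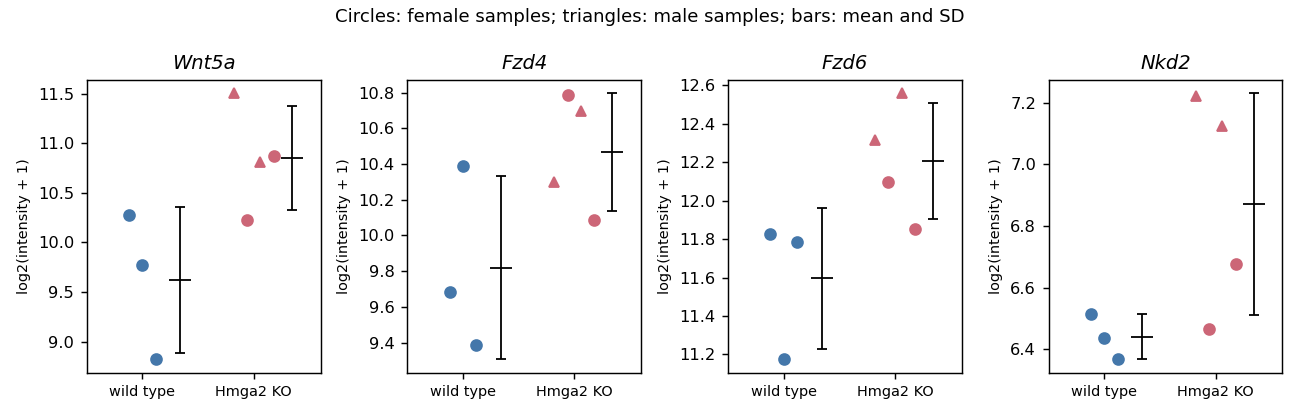
Values of Wnt5a, Fzd4, Fzd6 and Nkd2 in each sample, in log2(intensity + 1), by genotype, with the mean and SD of each group as bars. Circles are female and triangles male samples. The groups are separate for Fzd6 and overlap for the others.

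The other 7 frizzled genes showed smaller or less even differences. Fzd7, a receptor of Wnt7a in satellite cells, gave 5003, 5885 and 4272 in wild type and 5879, 6087, 6647 and 5154 in Hmga2 KO (difference 0.24, 95% interval -0.06 to 0.54). The other Fzd7 probe set, at 61.4 to 108, had 0.51, with every Hmga2 KO sample above every wild type sample. Fzd1, Fzd2, Fzd3, Fzd5 and Fzd8 had differences of -0.11 to 0.14. Fzd9 gave 159, 473 and 192 in wild type and 112, 254, 170 and 124 in Hmga2 KO. As for Wnt9a, replicate 2 was highest in each genotype. Its difference of -0.63 had a 95% interval of -1.52 to 0.25.

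Of the co-receptors, Lrp6 gave 4787, 4388 and 4380 in wild type and 4596, 5084, 4881 and 5201 in Hmga2 KO, a difference of 0.13 (95% interval -0.08 to 0.33). Lrp5 had -0.22 (95% interval -0.47 to 0.03). Lgr4, a receptor of R-spondins, had 0.20, and the kinase-related receptors Ryk and Ror1 had -0.03 and 0.01. Ror2, which can serve as a receptor of Wnt5a, gave 203, 93.1 and 214 in wild type and 142, 87.6, 129 and 65.8 in Hmga2 KO. Wild type replicates 1 and 3 were highest and the female Hmga2 KO samples lowest, with wild type replicate 2 close to them. The difference was -0.65 (95% interval -1.41 to 0.12, adjusted p = 0.433).

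Over all samples 0 of 7 secreted inhibitors had an unadjusted p under 0.05 between the genotypes in limma, beside the 13.3% of all genes. In females alone 3 of 7 did, beside 6.85%, and none passed adjustment in either fit. Sfrp1, a Wnt-binding inhibitor, gave 407, 295 and 394 in wild type and 497, 249, 383 and 188 in Hmga2 KO, where the males lay above the females. Sfrp2 had the opposite order, with 731, 553 and 622 in wild type and 546, 1033, 433 and 805 in Hmga2 KO. Both female Hmga2 KO samples exceeded the wild type range for Sfrp2, and both males lay below it. Frzb, of the same family, gave 160, 113 and 174 in wild type and 163, 93.6, 114 and 104 in Hmga2 KO. Genotype differences were -0.23 for Sfrp1, 0.08 for Sfrp2, -0.33 for Frzb and 0.09 for Sfrp4.

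The Dickkopf genes Dkk1, Dkk2 and Dkk3 had genotype differences of 0.07, 0.41 and -0.34. Dkk2 gave 66.5, 52.9 and 46.7 in wild type and 171, 42.1, 56.6 and 69.2 in Hmga2 KO. Hmga2 KO replicate 1 was thus clear of background, and the other 6 samples were near it. Dkk3, a divergent family member, ranged from 119 to 264 in wild type and from 97.1 to 239 in Hmga2 KO.

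The nuclear and feedback genes hold both parts of the pathway and genes that it induces. Ctnnb1, which encodes beta-catenin, was the steadiest, with 16937, 16672 and 16835 in wild type and 16603, 16537, 16066 and 17162 in Hmga2 KO. Its difference was -0.02 (95% interval -0.20 to 0.16). Axin2, a scaffold of the destruction complex and a widely used target of beta-catenin, gave 229, 184 and 301 in wild type and 252, 267, 235 and 261 in Hmga2 KO. All Hmga2 KO samples lay inside the wild type range (difference 0.12, 95% interval -0.23 to 0.47, adjusted p = 0.758). Znrf3, a ubiquitin ligase that removes frizzled receptors and is itself induced by the pathway, gave 3513, 2787 and 2933 and then 2721, 3652, 3578 and 3038. Its difference was 0.07 (95% interval -0.23 to 0.38). Lef1 had 0.07 and Apc -0.10. Tcf7l1, a TCF factor that often acts as a repressor, had -0.20 (95% interval -0.43 to 0.03).

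The naked cuticle genes Nkd1 and Nkd2 encode dishevelled-binding feedback inhibitors. Nkd2 gave 90.4, 85.7 and 81.6 in wild type and 148, 87.3, 138 and 101 in Hmga2 KO. The male samples, replicates 1 and 3, were highest, and Hmga2 KO replicate 2 lay within the wild type range. The difference was 0.43 (SE 0.180, adjusted p = 0.354, limma), and it was 0.13 in females alone. The other 3 Nkd2 probe sets, at 46.3 to 66.1, gave -0.06, -0.12 and 0.03. Nkd1 had 0.28 over all samples and 0.47 in females alone (females adjusted p = 0.687). Its other 3 probe sets gave -0.23, -0.24 and -0.01 over all samples.

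Sex was uneven between the groups, since no wild type sample was male. Female and male Hmga2 KO samples were therefore compared in a fit with 3 groups, and the genotypes also in females alone. Of the 45 members, 0 passed between male and female Hmga2 KO by limma (0.0385% of all genes passed), and 3 had an unadjusted p under 0.05, which is 6.67% beside 6.3% of all genes. Those 3 were Sfrp1 (male minus female 1.01, SE 0.216), Sfrp2 (-0.90, SE 0.192) and Nkd2 (0.60, SE 0.131), each with an adjusted p = 0.337. With 2 samples a sex, a difference between animals and one between sexes cannot be told apart. The males also had the lowest sarcomere sums, 49952 and 76967, against 112980 and 87275 in the females.

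In the 5 female samples 0 members passed by limma (0.0275% of all genes passed), and 7 had an unadjusted p under 0.05, which is 15.6% beside 6.85% of all genes. Higher in female Hmga2 KO were Wnt5a (0.92, SE 0.394), Sfrp2 (0.53, SE 0.170), Nkd1 (0.47, SE 0.174) and Rspo3 (0.45, SE 0.144). Lower were Ror2 (-1.06, SE 0.346), Sfrp1 (-0.74, SE 0.190) and Frzb (-0.57, SE 0.194). Their smallest adjusted p was 0.522, for Sfrp1. Of these 7, Wnt5a was the one that also had an unadjusted p under 0.05 over all samples.

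**Figure D3:**
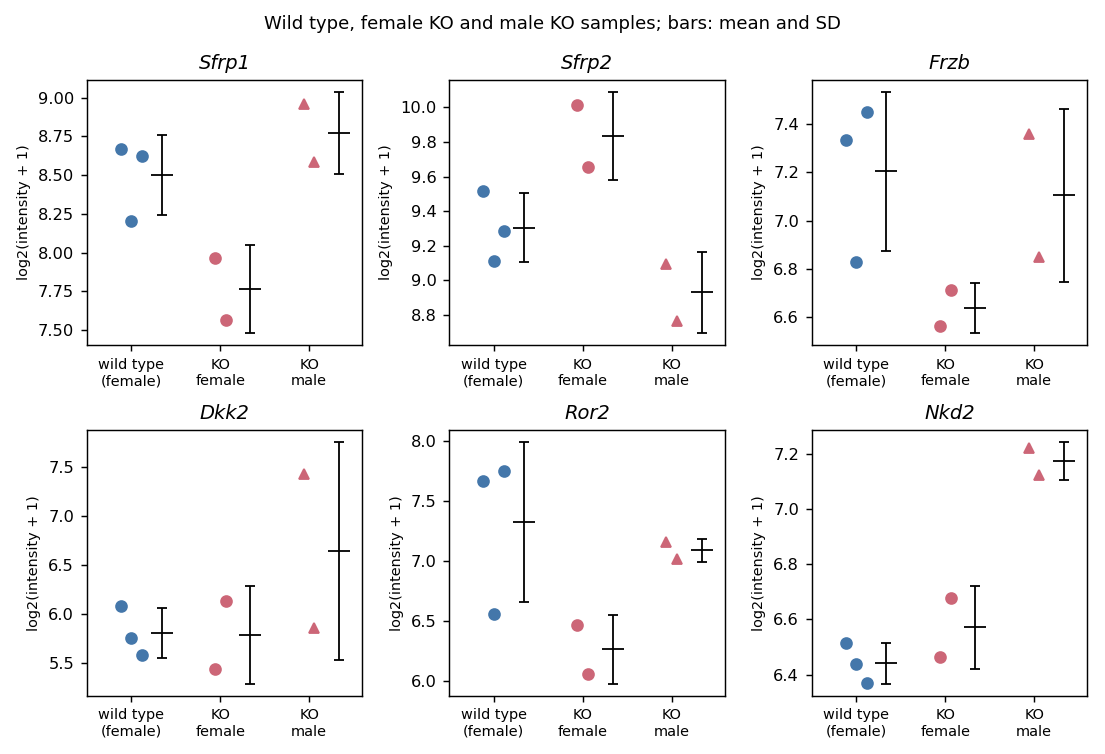
Values of Sfrp1, Sfrp2, Frzb, Dkk2, Ror2 and Nkd2 in wild type samples (all female) and in female and male Hmga2 KO samples, in log2(intensity + 1), with the mean and SD of each group as bars. For Sfrp1 and Nkd2 both males lie above both Hmga2 KO females, and for Sfrp2 below them.

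Samples also differed in how far they expressed the genes of differentiated muscle, so members were set against a sarcomere score. The score is the mean log2 value of 18 sarcomere genes, centred over the samples, and none of those genes is a member. It was 0.15, 0.68 and 0.43 in wild type and -0.97, 0.22, -0.36 and -0.14 in Hmga2 KO. Genotype and score were fitted together, a comparison added after the values were seen. For the score, 12 members had an unadjusted p under 0.05 (26.7%, beside 15.2% of all genes), and 1 passed adjustment (2.22%, beside 2.54%). The 12 included 3 of 7 secreted inhibitors, all with higher values where the score was low, and 4 of 9 frizzled genes, all with higher values where it was high. Of all genes, 4.83% had such a negative slope and 10.4% such a positive one. The 12 became 6 without Hmga2 KO replicate 1, 7 without Hmga2 KO replicate 2, 8 without wild type replicate 1 and 7 with the mean of all probe sets. The inhibitors among them became 1 without Hmga2 KO replicate 1. The frizzled genes became 0 without Hmga2 KO replicate 2 and 2 without wild type replicate 1 or 2.

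The member that passed was Dkk2, with -1.46 per unit of score (SE 0.260, adjusted p = 0.0213, limma). Its slope rested on Hmga2 KO replicate 1, the sample with the lowest score. Without that sample it was -0.75 (adjusted p = 0.451), and 0 of all genes then passed for the score. The call for Dkk2 also ended without wild type replicate 1 (adjusted p = 0.0569) and without Hmga2 KO replicate 2 (adjusted p = 0.171). Without wild type replicate 3, Wnt5a and Frzb passed beside Dkk2, and without Hmga2 KO replicate 4, Sfrp1 did. Frzb (-0.72), Sfrp1 (-0.98), Nkd2 (-0.58), Wnt5a (-1.02) and Ror2 (-0.94) were the others with a negative slope. Porcn (0.66), Wnt9a (0.87), Fzd9 (1.15), Fzd2 (0.41), Fzd5 (0.37) and Fzd3 (0.30) had a positive one. None of these 11 passed adjustment, and the smallest adjusted p among them was 0.0642, for Frzb.

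With the score in the model, 0 members passed for genotype by limma (0.0715% of all genes passed) and 8 had an unadjusted p under 0.05 (17.8%, beside 8.69%). The smallest adjusted p was 0.173, for Frzb, with a genotype difference of -0.86, beside -0.33 without the score. Only Hmga2 KO replicate 2, at 0.22, had a score within the wild type range of 0.15 to 0.68. Genotype and score can therefore hardly be told apart in this fit. Its genotype differences were not refitted with single samples left out. The Wnt5a difference was 0.48 in this model and that of Fzd6 0.30, whereas that of Fzd4 was 0.96. Nkd2 had 0.01.

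**Figure D4:**
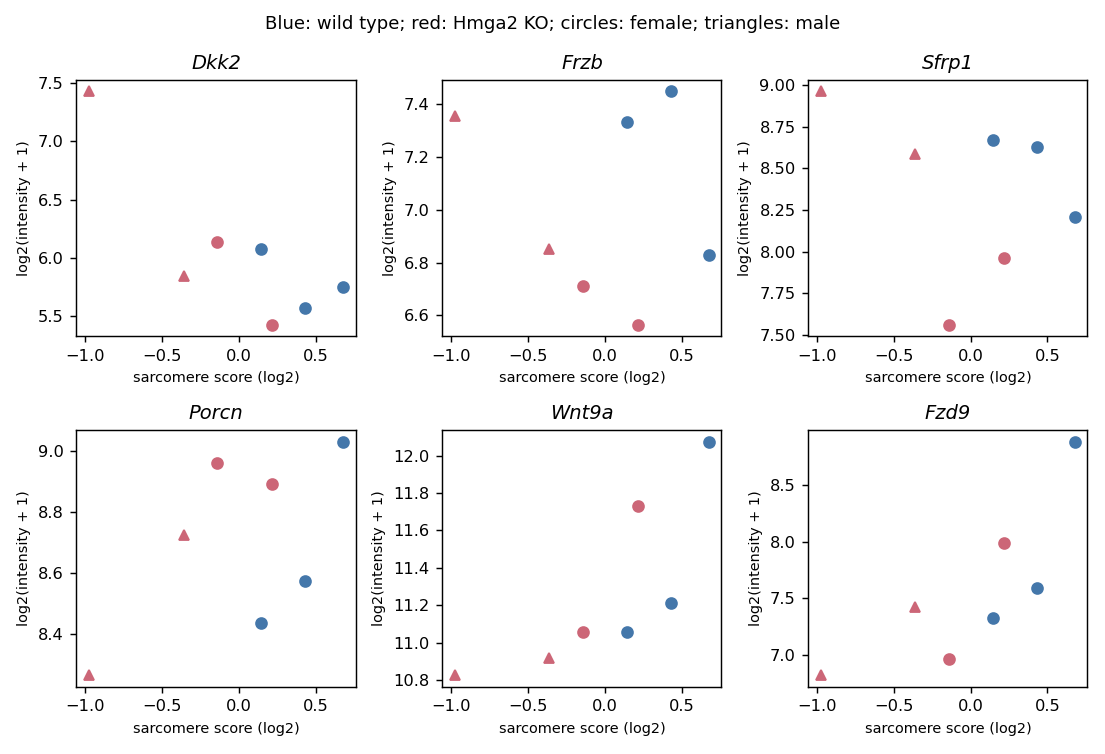
Values of Dkk2, Frzb, Sfrp1, Porcn, Wnt9a and Fzd9, in log2(intensity + 1), against the sarcomere score of each sample. Blue is wild type and red Hmga2 KO, circles are female and triangles male. The leftmost point, Hmga2 KO replicate 1, has a score of -0.97 and the highest Dkk2 value.

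The rest of the pathway was covered by 6 lists with 104 measured genes. By limma 0 of them passed between Hmga2 KO and wild type, and 13 had an unadjusted p under 0.05, 6 higher and 7 lower (12.5%, beside 13.3% of all genes). The groups did not overlap for 11 of them, 5 higher and 6 lower (10.6%, beside 11.7%). The differences with the largest size were those of Sostdc1 and Lgr6, which exceeded that of every member.

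Among 18 other ligands and secreted modulators, 2 were higher and 2 lower at an unadjusted p under 0.05. Sostdc1, a secreted antagonist of BMP and Wnt signals, gave 526, 499 and 186 in wild type and 1366, 1229, 1173 and 841 in Hmga2 KO. Every Hmga2 KO sample exceeded every wild type sample (difference 1.63, SE 0.340, adjusted p = 0.223, limma). Sost, which encodes the Lrp5 and Lrp6 inhibitor sclerostin, gave 336, 623 and 283 and then 606, 963, 574 and 1047. Its groups overlapped through wild type replicate 2 (difference 0.98, SE 0.303, adjusted p = 0.293). Wnt8a (-0.25) and Dkkl1 (-0.27) were lower but near background.

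Lgr6, a receptor of R-spondins, was the gene with such a p among 10 other receptors and membrane regulators. It gave 930, 1228 and 711 in wild type and 5097, 2071, 2072 and 2817 in Hmga2 KO, again without overlap (difference 1.59, SE 0.315, adjusted p = 0.201, limma). Hmga2 KO replicate 1 was far above the others. In females alone the difference was 1.37. Of 18 genes of signal transduction and the destruction complex, the scaffold gene Axin1 (-0.23) and the dishevelled gene Dvl3 (-0.29) had lower values in every Hmga2 KO sample than in any wild type sample. Axin1 gave 764, 808 and 784 in wild type and 693, 685, 673 and 636 in Hmga2 KO. These were small shifts with adjusted p = 0.325 and adjusted p = 0.307.

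Of 15 nuclear cofactors, 0 had an unadjusted p under 0.05 in limma. In the planar polarity and calcium list of 24 genes, Prickle1 was higher (0.65), and the kinase genes Camk2a (-0.84) and Camk2d (-0.39) were lower. For the sarcomere score 6 of the 104 genes passed (5.77%, beside 2.54% of all genes), and 0 did without Hmga2 KO replicate 1, 2 without Hmga2 KO replicate 2 and 3 without wild type replicate 1. Of those 6, Camk2a had a slope of 1.10 on the score (adjusted p = 0.0387, limma). Of 19 genes described elsewhere as beta-catenin targets, the T-box factor gene Tbx3 gave 764, 607 and 685 in wild type and 968, 1165, 1347 and 1297 in Hmga2 KO. Its groups did not overlap, and it had the smallest p of the 104 genes (difference 0.79, SE 0.137, adjusted p = 0.189, limma). Its difference was 0.85 in females alone. The Notch ligand gene Jag1 (0.96) was higher and the receptor gene Tnfrsf19 (-0.96) lower, the latter with a slope of 1.19 on the score (adjusted p = 0.00281, limma). The median of this target list was -0.04, beside -0.07 over all genes.

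**Figure D5:**
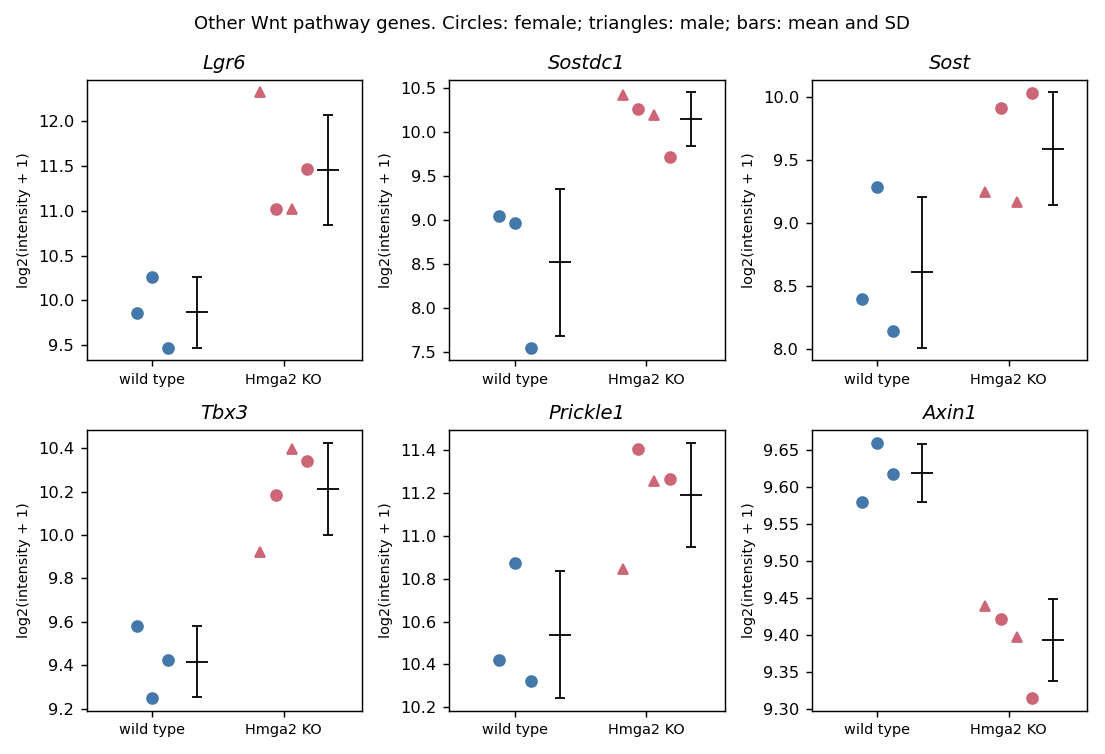
Values of Lgr6, Sostdc1, Sost, Tbx3, Prickle1 and Axin1 in each sample, in log2(intensity + 1), by genotype, with the mean and SD of each group as bars. Circles are female and triangles male samples. The groups are separate for Lgr6, Sostdc1, Tbx3 and Axin1, and overlap for Sost and Prickle1.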

How the data were processed

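Per the labels' protocols, biotin-labelled cRNA was made from total RNA of each of the 7 myoblast samples. The authors deposited 1 linear intensity per probe set and sample, for 45101 probe sets, and each sample has a median of 150. For probe summarization and background removal, the method was not given in the sources used here. Intensities were transformed to log2(intensity + 1) without further normalization. The platform table paired 34945 probe sets with 1 gene, 932 with several and 9211 with none, and 64 control probe sets were left out. Gene identifiers of 34741 were found among RefSeq genes of GRCm38.p6. The comparisons used limma 3.58.1 (lmFit, then eBayes) under R 4.3.3. P-values were adjusted by Benjamini-Hochberg across 18193 genes, and the threshold was 0.05. Samples are called biological replicates in the labels.

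The members and lists were chosen with earlier results of these data known. Every member may be named. Values in all samples are given for members with an unadjusted p under 0.05 or groups without overlap, for the 2 brightest of each role, and for others that the sex and score comparisons turn on, which were chosen after their values were seen. Of the other lists, up to 4 genes with an unadjusted p under 0.05 are named. For the lists, 104 of 106 pathway genes and 76 of 79 markers were measured. Alternatives were sex as a covariate, females only, a replicate block, leaving out each sample, quantile normalization, equal medians, leaving out the dimmest 40% of genes, other probe set choices, a pseudocount of 16, a trended prior and array weights. The fits were tested on simulated data.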

Additional observations from a re-analysis of the deposited data

Results flagged for a closer look

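Sfrp2 was lower in both male Hmga2 KO samples than in any wild type sample and higher in both female Hmga2 KO samples than in any, a male minus female difference of -0.905 on the log2 scale. No male wild type sample exists to compare with, and the limma test of male against female Hmga2 KO gave an adjusted p = 0.337. Wnt6 in Hmga2 KO replicate 3, at 122, stood apart from the other Hmga2 KO samples, at 139 to 142, by 0.851 of the group's range. Ror1 in Hmga2 KO replicate 1, at 156, stood apart from 130 to 133 by 0.840 of the range. Chance sets such a value apart in about 1 in 20 groups, and 45 members were examined.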

How the results depend on the processing

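Under all 19 alternatives 0 members passed between Hmga2 KO and wild type, and under all 15 that could be run 0 passed between male and female Hmga2 KO. With 3 and 4 samples, and 2 of each sex, only sizeable differences could pass. The differences of Wnt5a, Fzd4, Fzd6 and Nkd2 kept their sign under each alternative that held them, at 0.48 to 1.56, 0.43 to 0.96, 0.30 to 0.86 and 0.01 to 0.57. The lowest values of Wnt5a, Fzd6 and Nkd2 came from the unplanned fit with the sarcomere score. Of 837 member differences under alternatives, 29 moved by at least the spread between replicates. That rule was not applied to Wnt5a, Fzd4, Fzd6 and Nkd2, which were checked only for their sign and for passing adjustment. Their ranges above show how far they moved. The count of members with an unadjusted p under 0.05, 4 in the main analysis, was 7 in females only, 7 with the most variable probe set, 8 with equal medians, 8 with the sarcomere score as a covariate, and 3 to 8 when 1 sample was left out. The count of members without overlap, 1 in the main analysis, was 8 in females only, 2 with quantile normalization, 4 with equal medians, 3 with the mean of all probe sets, 3 with the most variable probe set, and 2 to 8 when 1 sample was left out, where fewer samples must be separate. The count of members passing for the sarcomere score, 1 in the main analysis (Dkk2), was 2 with quantile normalization (with Frzb), 2 with equal medians (with Sfrp1), 0 without the dimmest 40% of genes, where Dkk2 was left out, and 0 to 3 when 1 sample was left out. The cause of the other moves was not tested. Of all genes, 6.85% had an unadjusted p under 0.05 for genotype in females only and 8.69% with the score (limma). For the other counts of that p, and for overlap, shares of all genes were not counted under these alternatives. Over all genes, 5 passed in the main analysis, 2 to 17 when 1 sample was left out, and up to 99 under the others.

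Whether replicate numbers pair the samples cannot be told here. The deviations of same-numbered samples correlated at 0.314, 0.365 and -0.18, and those of differently numbered samples were not compared. With the replicate block 99 of all 18193 genes passed by limma, beside 5 in the main analysis. Of the members 0 passed and 9 had an unadjusted p under 0.05, and the share of all genes at that p was not counted. The 99 included 3 other pathway genes, Sost (0.83, adjusted p = 0.0428), Sostdc1 (1.77, adjusted p = 0.0354) and Tnfrsf19 (-1.02, adjusted p = 0.0354). Of the other pathway genes 0 passed without the block and under the other 18 alternatives.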
